A study of Physcomitrium patens with 6 samples.

Results

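The genes numbered around PpDDM1 on chromosome 17 of the moss *Physcomitrium patens* were followed to see how they were expressed once PpDDM1 had been replaced. They are the gene rows of the count table whose identifiers are Pp3c17 with a number from 17000 to 22000, without the replaced gene Pp3c17_19520 itself. There are 252 such genes of 31967 in the table, and chromosome 17 has 863 others. Of the 252 genes, 122 have lower and 130 have higher numbers than PpDDM1. The numbers follow the order of the genes along the chromosome, most of them in steps of 10, so a difference in number is an order and not a length. The first gene is Pp3c17_17000 and the last is Pp3c17_21990, with Pp3c17_16950 and Pp3c17_22010 just outside.

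RNA-seq was done on polyA RNA from protonema, the branching filaments that grow from a moss spore, of the strain Grandsen, at an age of 7 days, grown on BCDAT medium at 25 °C in 16 h of light and 8 h of dark. There were 3 libraries of wild type (wt) and 3 of *Ppddm1* (ddm1), in which most of the coding region of PpDDM1 was exchanged for a Zeocin resistance cassette by homologous recombination. The mutant is a single plant found after selection, so its libraries cannot tell the loss of PpDDM1 apart from other changes of that plant. Library totals ran from 2784259 to 10536543 counts, and by the labels batch 1 holds replicates 1 and 2 of both genotypes and batch 2 holds their replicates 3. Nothing says that the replicates came from separate cultures, so p-values measure the spread between these libraries, which may be technical. The identifiers could not be paired with gene names, so no function is given for any gene but PpDDM1, and the tissue label could not be checked against marker genes. In bulk RNA, fewer cells of a type and less RNA per cell cannot be told apart.

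DDM1 belongs to the SWI/SNF2 proteins, which use ATP to move nucleosomes, and it opens nucleosome-bound DNA to DNA methyltransferases. In plants it is best known for keeping methylation, and with it silencing, at transposable elements (TEs). Replacement by homologous recombination is designed to leave the flanking genes in place.

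PpDDM1 was nearly absent from *Ppddm1*. Its counts-per-million level (CPM, relative to the library total) was 15.1, 18.3 and 26.5 in wild type and 1.06, 0.974 and 1.04 in *Ppddm1*. By edgeR's quasi-likelihood fit this was a log2 fold change of -4.31 ± 0.32 (SE, edgeR adjusted p = 1.9e-05).

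The 252 genes together took about the same share of the reads in both genotypes. They summed to 4746, 4937 and 4833 CPM in wild type and to 4706, 4778 and 4722 CPM in *Ppddm1*. The ranges of the genotypes overlapped, with means of 4839 ± 95.4 CPM (SD, n = 3) and 4735 ± 37.5 CPM (SD, n = 3), a ratio of 0.979. Of the 252 genes, 171 had at least 10 counts over the 6 libraries and were tested, 33 had between 1 and 9 counts, and 48 had no count in any library. The share without a count was 19.0% here, 28.6% among the other genes of chromosome 17 and 27.3% among all genes. None of the 171 tested genes lacked reads in *Ppddm1*, and 162 had counts in every library. Of all 19626 tested genes, only 5 lacked reads in *Ppddm1*, and 18414 had counts in every library. Of the 161 genes with at least 10 wild type counts, the one with the fewest *Ppddm1* counts had 4. Among the 33 genes with few counts, 12 had them in *Ppddm1* alone, 7 in wild type alone and 14 in both. Among the 3613 such genes of the whole table, the numbers were 1277, 698 and 1638. The *Ppddm1* libraries were also deeper, with 18409102 counts in total against 13136905 in wild type.

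Of the 171 tested genes, 4 were called lower and 1 was called higher in *Ppddm1*. Calls needed a Benjamini-Hochberg adjusted p (over the 20647 genes and TEs that edgeR's quasi-likelihood fit tested) below 0.05 together with a 2-fold change or more. The 4 lower genes are 2.34% of those tested here, where 2.46% of all tested genes were called lower. The 1 higher gene is 0.585%, where 0.545% of all tested genes were called higher. Both shares were near those of all genes. At an adjusted p under 0.05 with no limit on the fold, 9 genes were lower and 2 higher, or 5.26% and 1.17%, beside 4.38% and 1.31% of all tested genes. With wild type replicate 2 or 3 left out, 5 genes passed in place of these 11. With *Ppddm1* replicate 2 or 3 left out, 7 and 4 did, and in batch 1 alone 2 did. Without wild type replicate 1 the number was 15, and without *Ppddm1* replicate 1 it was 11. The *Ppddm1* values were all below those of wild type in 22 genes (12.9%) and all above in 17 genes (9.94%), beside 10.9% and 12.3% of all tested genes. The median log2 fold change of the 171 genes was 0.02, with quartiles of -0.28 and 0.20, beside 0.01 for all tested genes, whose quartiles were -0.22 and 0.20. For 127 of the 171 genes (74.3%) it lay within 0.5 of zero, beside 79.0% of all tested genes and 77.1% of the other tested genes of chromosome 17.

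**Figure D1:**
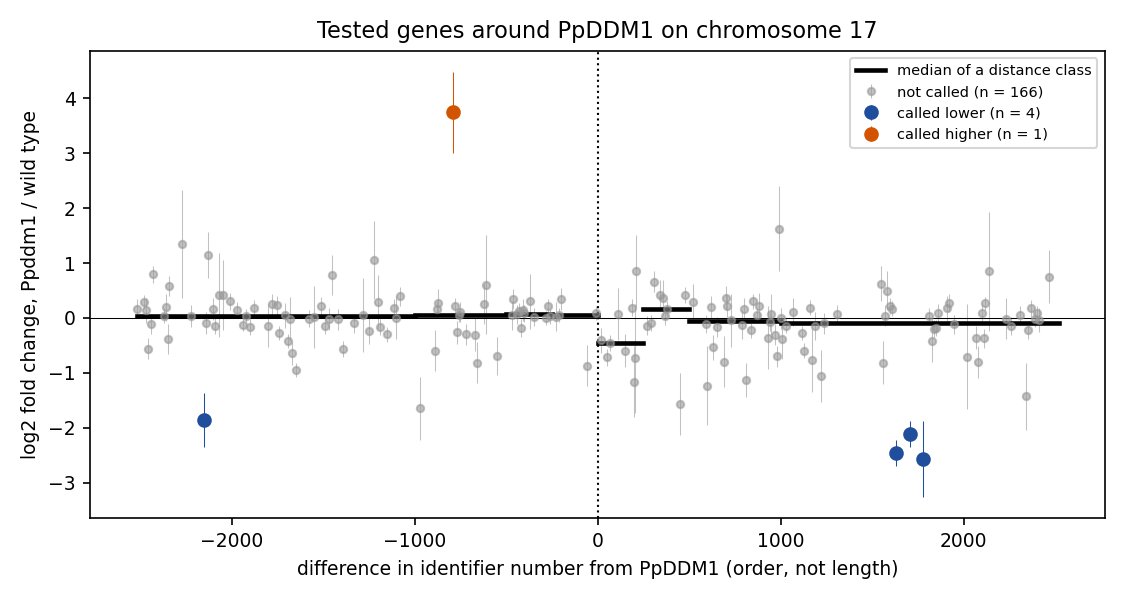
Log2 fold change (*Ppddm1* over wild type, from edgeR) of the 171 tested genes against the difference in identifier number from PpDDM1, with thin bars for the standard error and thick lines for the median of each distance class. The line of 9 genes just above PpDDM1 lies at -0.45, and the others lie between -0.09 and 0.17. Those 9 genes run from -1.16 to 0.86, with 6 of them below 0 and a median level of 6.15 CPM. The 5 called genes are at differences of 790 or more.

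The 20 tested genes nearest to PpDDM1 held none of the 5 calls. Of all tested genes, 2.46% were called lower and 0.545% higher. At these shares few or no calls would fall among 20 genes, so their absence cannot show an effect of distance. The closest called gene was 790 numbers away. On the side of the lower numbers, the adjacent gene Pp3c17_19510 had 43.1, 39.6 and 38.3 CPM in wild type and 43.3, 42.4 and 45.2 CPM in *Ppddm1*, so that the genotypes overlapped. Its log2 fold change was 0.09 ± 0.13 (SE, edgeR adjusted p = 0.786). Pp3c17_19460, the next tested gene, varied widely in both genotypes. It had 14.0, 26.2 and 31.9 CPM in wild type and 7.17, 22.4 and 12.5 CPM in *Ppddm1*, with a log2 fold change of -0.87 ± 0.37 (SE, edgeR adjusted p = 0.257). In batch 1 its log2 ratio of mean CPM was -0.44, and in batch 2, with 1 library of each genotype, it was -1.35. The 3 tested genes beyond it, Pp3c17_19320, Pp3c17_19310 and Pp3c17_19290, overlapped between genotypes and had log2 fold changes of 0.35, 0.05 and 0.02.

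On the side of the higher numbers, 4 of the 5 nearest tested genes had negative log2 fold changes. The first of them, Pp3c17_19540, had 131, 74.4 and 70.2 CPM in wild type and 78.0, 57.2 and 74.3 CPM in *Ppddm1*. Wild type replicate 1 stood apart there, the genotypes overlapped, and the log2 fold change of -0.41 (edgeR adjusted p = 0.416) was -0.07 without that library. Pp3c17_19570 was lower in every *Ppddm1* library, with 144, 194 and 171 CPM in wild type and 111, 122 and 86.8 CPM in *Ppddm1*. Its log2 fold change of -0.71 (standard error 0.16) had an adjusted p of 0.0163 from edgeR but was under the 2-fold limit. Without wild type replicate 2, wild type replicate 3 or *Ppddm1* replicate 3 its adjusted p rose above 0.05, and over all the alternatives it ran from 0.00131 to 0.389, the highest being batch 1 alone. Pp3c17_19590, the next gene, had 48.8, 48.9 and 51.2 CPM in wild type and 39.5, 40.9 and 31.9 CPM in *Ppddm1*. The genotypes did not overlap, and the log2 fold change was -0.45 ± 0.14 (SE, edgeR adjusted p = 0.0841). Pp3c17_19630 and Pp3c17_19670 had means of at most 7.19 CPM, overlapped between genotypes, and had log2 fold changes of 0.07 and -0.59.

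**Figure D2:**
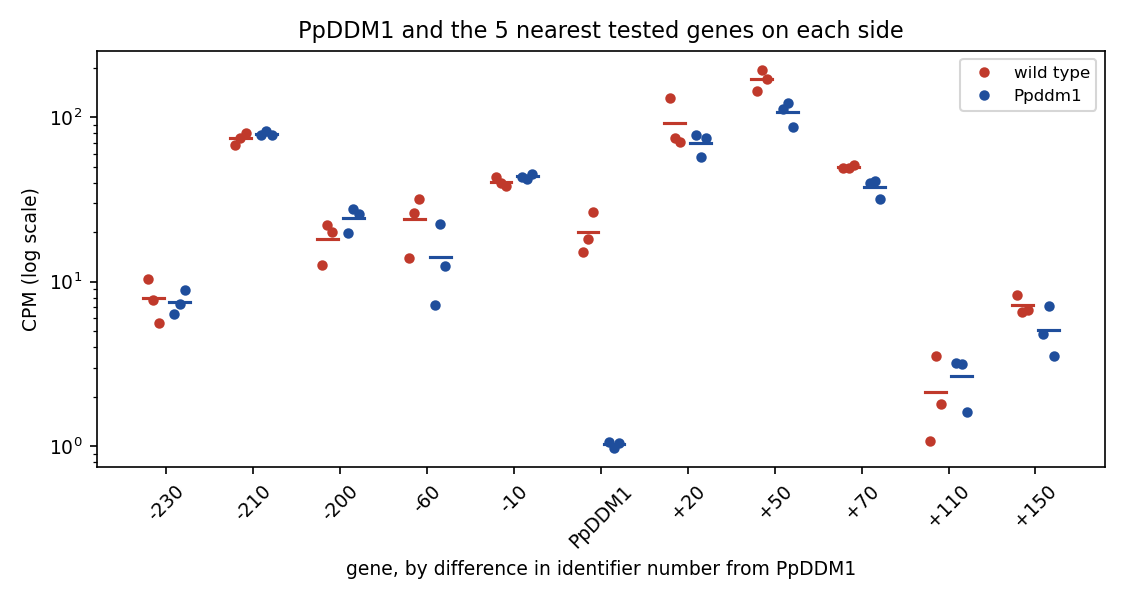
CPM (log scale) of PpDDM1 and of the 5 nearest tested genes on each side in each library, with horizontal bars for the mean of the 3 libraries of a genotype. PpDDM1 drops from a mean of 19.9 to 1.03 CPM, while among its 10 neighbours the genotypes separate, with *Ppddm1* lower, at +50 and +70 (Pp3c17_19570 and Pp3c17_19590). Over all tested genes, *Ppddm1* was all below wild type in 10.9% and all above in 12.3%. Among the 20 nearest tested genes, 2 were all below and 2 all above.

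Close to PpDDM1 the medians of the sides lay apart, a difference that was not tested. The median log2 fold change of the 5 nearest tested genes was -0.45 on the side of the higher numbers, with no gene called, and 0.05 on the other side. That grouping by side was made after the values had been seen. In single libraries, with 0.5 added to the TMM-scaled CPM, the median log2 ratio of the 5 higher-numbered genes to wild type was -0.34, -0.32 and -0.66 in *Ppddm1*, and -0.02, -0.03 and -0.14 for each wild type library against the other wild type libraries. Of 100 windows of 5 consecutive tested genes laid out over the rest of chromosome 17, 9 had a median at or below that of these 5 genes, and the lowest was -1.23. With the windows laid out from the first gene of the chromosome, 6 of 101 did. For the 10 nearest tested genes on the higher-numbered side, the same library medians were -0.33, 0.0003 and -0.34 in *Ppddm1*. In wild type they were -0.12, 0.09 and -0.07, so the genotypes overlapped. The 20 nearest on that side had a median log2 fold change of -0.02, with 10 of them below 0. The median was 0.17 for the 9 genes at differences of 250 to 500 above PpDDM1, and all classes on the lower-numbered side lay between 0.04 and 0.07. Over the whole stretch, 49 of the 87 tested genes above PpDDM1 (56.3%) and 33 of the 84 below it (39.3%) had a negative log2 fold change, with medians of -0.07 and 0.05. The share was 48.2% of all tested genes and 53.5% of the other tested genes of chromosome 17.

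The 20 tested genes nearest to PpDDM1, 10 on each side, had a median log2 fold change of 0.02, and the other 151 had 0.04. Among 24 windows of 20 tested genes outside the stretch on chromosome 17, the medians ran from -0.46 to 0.29, and 16 were at or below the median next to PpDDM1. From 0 to 2 genes were called lower in such a window, and the 0 next to PpDDM1 lay within that range. Over all tested genes 2.46% were called lower. With windows as large as the whole stretch, 171 tested genes each, chromosome 17 holds 2 others when they are laid out from the ends of the stretch. Their medians were -0.05 and -0.03, they held 4 and 1 genes called lower and 1 called higher each, and their summed CPM in *Ppddm1* was 0.937 and 1.021 times that of wild type. For the stretch around PpDDM1 the same values were 0.02, 4, 1 and 0.979.

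**Figure D3:**
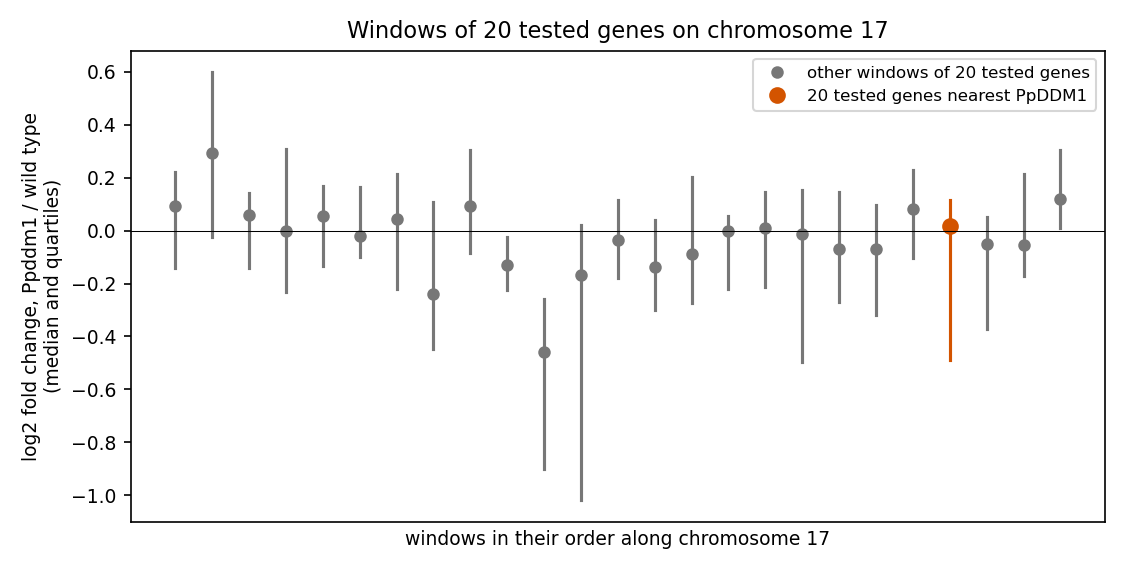
Median (points) and quartiles (bars) of the log2 fold change in windows of 20 tested genes, in their order along chromosome 17. The 20 genes nearest to PpDDM1 have a median of 0.02, inside the range from -0.46 to 0.29 of the 24 windows outside the stretch. The other genes of the stretch are not drawn.

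Of the 4 lower genes, 3 were consecutive tested genes at differences of 1630 to 1780 from PpDDM1. Pp3c17_21150 fell from 20.8, 28.1 and 25.7 CPM in wild type to 3.19, 3.65 and 5.98 CPM in *Ppddm1*. Its means were 24.9 ± 3.69 CPM and 4.27 ± 1.5 CPM (SD, n = 3 each), so *Ppddm1* kept 17.2% of the wild type level, and the log2 fold change was -2.45 ± 0.24 (SE, edgeR adjusted p = 7.27e-05). Pp3c17_21228 fell from 33.0, 23.2 and 22.9 CPM to 4.51, 4.87 and 7.69 CPM. Its log2 fold change was -2.11 ± 0.24 (SE, edgeR adjusted p = 0.000225). For both genes the genotypes were far apart, the call was made under all 17 alternative fits, and *Ppddm1* replicate 3 had the highest level of its genotype. In batch 1 their log2 ratios of mean CPM were -2.84 and -2.58, and in batch 2, with 1 library of each genotype, -2.10 and -1.57.

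The third gene, Pp3c17_21300, was read very little. It had 18 counts over the wild type libraries (1.08, 1.64 and 1.32 CPM) and 4 over the *Ppddm1* libraries (0.265, 0 and 0.285 CPM). The fitted log2 fold change was -2.56 (edgeR adjusted p = 0.0389), and the ratio of pooled CPM was 0.159 (exact 95% interval 0.0390 to 0.481, for counting error only). This call was made in 5 of the 16 alternative fits that tested the gene and was lost without each of 5 libraries, the edgeR adjusted p being 0.133 and 0.120 when wild type replicate 2 or 3 was left out, and 0.0725, 0.106 and 0.188 when *Ppddm1* replicate 1, 2 or 3 was.

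These 3 genes, grouped after their values had been seen, span 8 rows of the table. The 5 rows between them were not tested, and they held 3 counts in wild type and 0 in *Ppddm1*, with 3 of the rows at no count in any library. Summed over the 8 rows, the level was 55.3, 53.4 and 49.8 CPM in wild type and 7.96, 8.53 and 14.0 CPM in *Ppddm1*, or 52.8 ± 2.77 CPM (SD, n = 3) against 10.1 ± 3.31 CPM (SD, n = 3). None of the tested genes next to the run passed the test. The 4 nearest tested genes on each side had log2 fold changes between -0.41 and 0.50, and the lowest edgeR adjusted p among them was 0.504. Elsewhere on chromosome 17, where 9 genes were called, 2 pairs of consecutive tested genes were called in the same direction. No run there was longer than 2. In the alternative fits that did not call Pp3c17_21300, the run near PpDDM1 was also a pair. A window of 20 tested genes numbered 9670 to 10270 held 3 called lower, not all of them consecutive. How often such runs occur over all tested genes was not counted. Reads with several matches were assigned at random and the strand setting of the counting is not given in the sources used here, so the counts of near-identical or overlapping genes in such a run are uncertain.

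**Figure D4:**
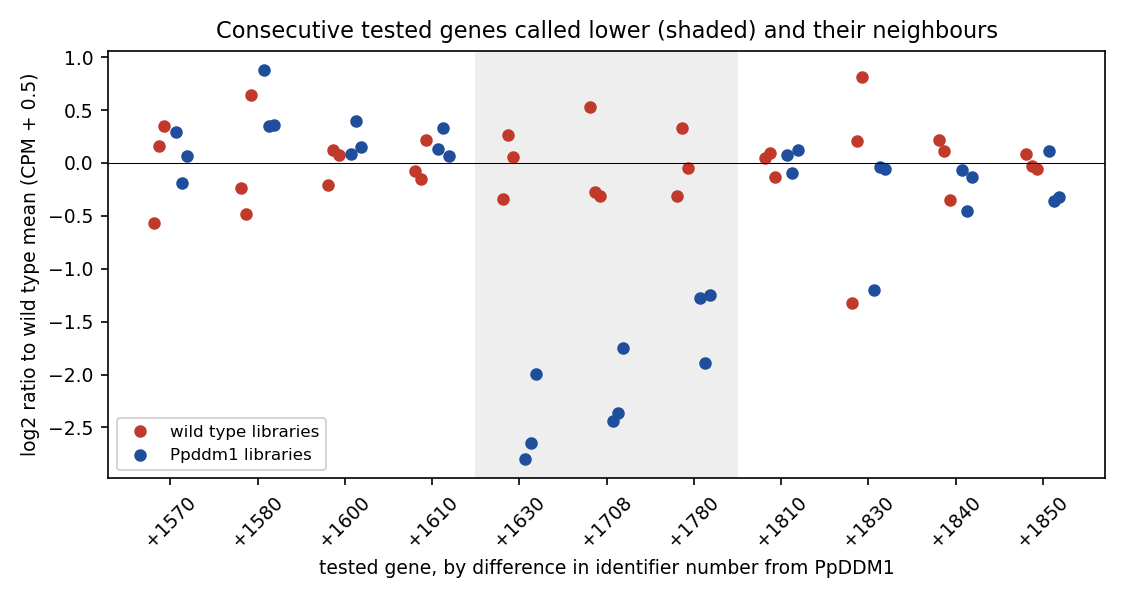
Log2 ratio of each library to the wild type mean (TMM-scaled CPM with 0.5 added, each wild type library set against the other wild type libraries) for the 3 consecutive lower genes (shaded) and the 4 tested genes on each side. The *Ppddm1* libraries lie between -2.80 and -1.25 in the shaded genes, and those genes' fitted changes of -2.45, -2.11 and -2.56 stand against -0.41 to 0.50 in the 8 flanking genes.

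The other lower gene lay alone on the opposite side, at a difference of 2150 numbers. Pp3c17_17370 had 2.51, 3.04 and 2.80 CPM in wild type and 0.531, 1.71 and 0.475 CPM in *Ppddm1*. The genotypes did not overlap, and the log2 fold change was -1.86 ± 0.49 (SE, edgeR adjusted p = 0.0447). The call was made in 7 of 17 alternative fits. It was lost without wild type replicate 2 (adjusted p = 0.142), wild type replicate 3 (0.154), *Ppddm1* replicate 1 (0.0802) or *Ppddm1* replicate 3 (0.368), from the same edgeR test. In batch 1 its log2 ratio of mean CPM was -1.31 and in batch 2 it was -2.56.

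The 1 gene called higher, Pp3c17_18730, was almost unread in wild type. Its levels were 0, 0 and 0.493 CPM in wild type and 2.12, 5.12 and 3.13 CPM in *Ppddm1*, from 3 and 62 counts. The ratio of pooled CPM was 14.7 (exact 95% interval 4.82 to 73.5, for counting error only). The adjusted p was 0.00595 from edgeR (0.000332 to 0.0895 over the alternatives), and the genotypes did not overlap. The call was made in 15 of the 16 alternative fits that tested the gene and was lost in batch 1 alone (edgeR adjusted p = 0.0895). The fitted log2 fold change was 3.74, and 7.12 without wild type replicate 3, which held the only wild type counts. Its neighbour Pp3c17_18740 had a log2 fold change of 0.21 (edgeR adjusted p = 0.517).

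Below the 2-fold limit, 6 more genes had an adjusted p under 0.05, 5 of them lower with log2 fold changes from -0.94 to -0.56, Pp3c17_19570 among them. The strongest of these, named after its values had been seen, was Pp3c17_17870, with 93.4, 95.5 and 92.3 CPM in wild type and 54.1, 49.7 and 46.1 CPM in *Ppddm1*. Its log2 fold change was -0.94 ± 0.13 (SE, edgeR adjusted p = 0.000728), and without *Ppddm1* replicate 1 it passed the 2-fold limit.

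Of the 5 genes with the most reads in the stretch, 1 (Pp3c17_19570) had an adjusted p under 0.05. Gene lengths were not used, so these CPM values compare genotypes and not genes. Pp3c17_17600 had 362, 387 and 353 CPM in wild type and 379, 373 and 406 CPM in *Ppddm1*, a log2 fold change of 0.04 ± 0.11 (SE, edgeR adjusted p = 0.897). The other 4 of the 5 most read genes, Pp3c17_17580, Pp3c17_19570, Pp3c17_20360 and Pp3c17_17780, had log2 fold changes of -0.13, -0.71, -0.22 and -0.27. Together these 5 genes took 20.8% of the reads of the stretch in wild type and 19.3% in *Ppddm1*. The replicates of a tested gene had a median coefficient of variation of 17.9% in wild type and 15.4% in *Ppddm1*, beside 16.2% and 15.1% for the other tested genes of chromosome 17. As a description across genes, which are not independent replicates and share the libraries, the log2 fold changes of adjacent tested genes had a Pearson r of 0.16 and a Spearman rho of 0.06 over 169 pairs. These were 0.01 and 0.02 over 164 pairs when the 5 called genes were left out, with the genes flanking a left-out gene then paired. On the rest of chromosome 17, with its 9 called genes kept, they were 0.09 and 0.15 over 505 pairs. With called genes kept in both, the order of the stretch and the rest differed between the measures.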

How the data were processed

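The authors trimmed single-end reads with Trim Galore 0.6.0 and cutadapt 1.15, aligned them with STAR 2.7.0f, placed reads with several matches at random, and deposited the resulting counts for genes and TEs unnormalized. The versions are those in the submitters' processing notes, and no source used here gives the counting program. Features reaching 10 counts in total (20647, of which 19626 genes) entered a single fit: edgeR 4.0.16 in R 4.3.3, TMM scaling, robust quasi-likelihood, genotype as the one term. The methods name limma, which was run as an alternative. The standard error is the fitted coefficient over the square root of its F statistic. CPM values use library totals. The depth limits genes of few counts, and intervals cover counting error only. Replicate pairs all differed by more than sampling noise.

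The members, lists and rules were chosen with earlier results of these data known. The rule for named genes takes the 5 tested genes nearest to PpDDM1 on each side, every called gene, the 5 genes with the highest mean CPM, and genes with at least 10 counts in 1 genotype and none in the other, of which there were 0. None of the identifiers was found among the 27567 genes of the RefSeq table, so no name or sequence was attached. Alternatives covered the scaling, filter, tool, batch, replicate block, threshold, bounds, windows and each library left out. Figures were drawn with matplotlib 3.10.9.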

Additional observations from a re-analysis of the deposited data

How the results depend on the processing

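The calls of Pp3c17_21150 and Pp3c17_21228 were made under all 17 alternative fits. The genes called lower numbered 4 and fell to 2 with filterByExpr, which left 145 of the 171 genes in the test, with DESeq2 1.42.0, with the batch as a term, with the earlier quasi-likelihood method (chosen after seeing the data) and in batch 1 alone. Between 18000 and 21000, where 101 genes were tested, they numbered 0, since all 4 have numbers outside these bounds. They numbered 9 with no fold limit and ran from 2 to 6 with 1 library left out. They were 2 without wild type replicate 2, wild type replicate 3 or *Ppddm1* replicate 3, 5 without *Ppddm1* replicate 1 and 6 without wild type replicate 1. The genes called higher numbered 1, and 0 with filterByExpr and in batch 1 alone, 2 with no fold limit, and 1 to 2 with 1 library left out. The filterByExpr filter left Pp3c17_18730 and Pp3c17_21300 untested, while batch 1 alone tested Pp3c17_18730 and did not call it. The median log2 fold change of the members ran from -0.049 to 0.060 with 1 library left out, and that of the nearest 20 genes from -0.041 to 0.053. The latter was 0.049 with library totals. The summed CPM ratio of 0.979 was 0.957 with TMM scaling and 0.969 to 0.989 with 1 library left out. The highest median of a window of 171 genes was -0.03, and 0.06 with windows laid out from the first gene. The sign turned for genes near zero: Pp3c17_19290 with DESeq2 (-0.041), the earlier method (-0.0051), batch 1 alone (-0.42) and 1 library left out (-0.23 to 0.23), Pp3c17_17600 in batch 1 alone (-0.034), and, with 1 library left out, Pp3c17_19310 (-0.0013 to 0.11) and Pp3c17_19630 (-0.13 to 0.57). The cause of these changes was not tested. With the replicate number as a block, 4 genes were called lower and 1 higher, with Pp3c17_20330 gained and Pp3c17_21300 lost, 20 genes in place of 11 had an adjusted p under 0.05 with no fold limit, and among the neighbours of PpDDM1 that p was 0.0139 for Pp3c17_19460 and 0.0390 for Pp3c17_19590 in edgeR. The 11 were 7 with filterByExpr, DESeq2 or the batch as a term. Same-numbered libraries deviated together for numbers 1 and 2 (Pearson r of 0.345 and 0.288 over 17086 features) but not for 3 (-0.0195). Wild type replicate 3 and *Ppddm1* replicate 2, of unlike number, also deviated together (0.266). The number was therefore not taken to pair the libraries. Genes with few counts are limited by depth.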
